A study of Oryctolagus cuniculus with 8 samples.

Results

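The mitochondrial genome is a small circular DNA that mammals inherit from the mother. It encodes 2 ribosomal RNAs, 22 transfer RNAs (tRNAs) and 13 proteins, all of them core subunits of the respiratory chain and of ATP synthase. Both strands are copied into long precursor RNAs. On the heavy-strand precursor, tRNAs lie between most messages and are cut out to release them, while the light-strand precursor carries ND6 and a minority of the tRNAs. In the developing lung, as in other tissues, these proteins work together with nuclear subunits in oxidative phosphorylation.

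The rows described here are 37 consecutively numbered Ensembl gene IDs, ENSOCUG00000029081 to ENSOCUG00000029117, on adjacent lines of a count table of 23669 IDs. They were picked out by number, with earlier results of these data known. The table gives neither gene names nor coordinates, so names such as COX1 are assigned by place in the mammalian gene order and are not paired with the IDs by any file. As a check, the 15 places of ribosomal RNA and protein genes held the 15 highest counts of the 37 in each placebo library: the lowest of them had 2122 counts or more and the highest tRNA place 268 or fewer. In the other libraries, where many members were nearly empty, 14 or 15 of these places were among the 15 highest.

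RNA was sequenced from 8 rabbit lungs. Congenital diaphragmatic hernia (CDH), an opening in the diaphragm that goes with small, poorly grown lungs, had been created by surgery. Animals in the treated group received treprostinil, a prostacyclin analogue that widens the arteries of the lung, on day 24 of a pregnancy of 31 days. The groups were 3 hernia lungs without the drug (placebo CDH, called unexposed in the titles), 3 hernia lungs exposed to treprostinil (exposed CDH) and 2 control lungs, also marked as placebo. The sources used here do not give the strain, the day of collection or whether control animals had surgery, and do not state that libraries came from separate animals. P-values therefore measure only how far these libraries differ, and part of that spread may be technical.

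Titles open with a code: 61 for placebo CDH replicates 1 and 2, 56 for placebo CDH replicate 3, 81 for every exposed library and 83 for both controls. What the code stands for is not stated. No code occurs in more than 1 group, so group and code cannot be told apart. Libraries held between 9367924 and 22060353 counts. Levels are given as CPM (a library's counts scaled to a total of 1e6), without correction for gene length, and are compared between libraries rather than between genes. In bulk tissue, fewer cells of a type and less RNA per cell cannot be told apart. Lung marker genes and nuclear genes of oxidative phosphorylation could not be looked up, since 0 of the IDs are paired with a symbol in the sources used here.

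In placebo CDH lungs every ribosomal RNA and protein gene of the run was well counted. In exposed CDH and control lungs, 12S, 16S, ND1, ND2 and COX1 kept levels of the same order as in placebo, while the protein genes from COX2 to CYTB were nearly empty, with ND6 the least so. The whole run held 2.61%, 2.35% and 2.03% of the counts in placebo CDH replicates 1 to 3. It held 0.693%, 0.708% and 0.693% in exposed CDH replicates 1 to 3, and 0.643% and 0.632% in control replicates 1 and 2. Placebo libraries were highest, and exposed and control libraries lay close together. Exact binomial 95% intervals of these shares, which cover counting error only, were narrow. The widest was 2.34% to 2.36%, in placebo CDH replicate 2.

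The summed level was 23295 ± 2885 CPM (SD, n = 3) in placebo CDH, 6978 ± 85.6 CPM (SD, n = 3) in exposed CDH and 6372 ± 77.8 CPM (SD, n = 2) in control lungs. On the log2 scale, exposed CDH differed from placebo CDH by -1.73, placebo CDH from control by 1.86 and exposed CDH from control by 0.13. No pair of groups overlapped. The exact two-sided permutation p was 0.1 for each of the 3 comparisons, the smallest value that these group sizes allow, so no difference in the sum could pass 0.05.

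The larger part of this difference lay on the far side of a boundary between COX1 and COX2. The 18 places before COX2 summed to 11590 ± 1556 CPM in placebo CDH (SD, n = 3), 6930.4 ± 101 CPM in exposed CDH (SD, n = 3) and 6356 ± 76.5 CPM in control lungs (SD, n = 2). The 19 places from COX2 to the end of the run summed to 13337, 11296 and 10482 CPM in placebo CDH replicates 1 to 3. The same places summed to 81.3, 33.5 and 28.01 CPM in exposed CDH replicates 1 to 3 and to 16.4 and 14.5 CPM in the controls. They thus took 48.0% to 51.6% of the run's counts in placebo libraries, 0.404% to 1.17% in exposed and 0.229% to 0.255% in control libraries. The boundary was chosen after the values were seen, so its sums are a description without a test. Whether mitochondrial reads were aligned and counted alike in every library, for instance where a lung's mitochondrial haplotype differs from the reference genome or reads also match nuclear copies, was not tested. A low value here is therefore a low count, which need not be a low RNA level.

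**Figure D1:**
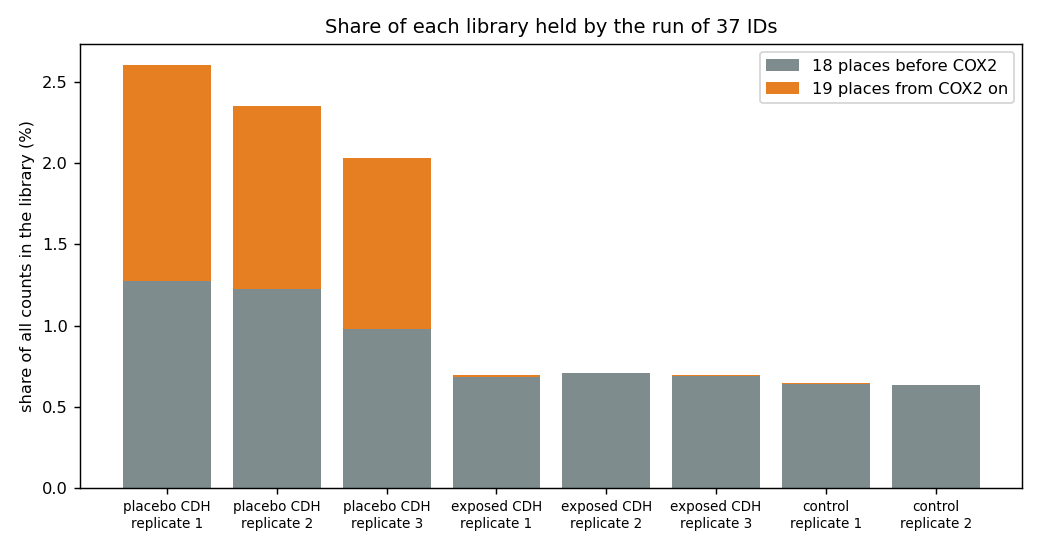
Share of all counts in each library (%) held by the 18 places before COX2 (grey) and the 19 places from COX2 on (orange), for 3 placebo CDH, 3 exposed CDH and 2 control libraries. Both parts are of similar size in placebo libraries (2.03% to 2.61% in all), whereas the orange part is almost invisible in the others.

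The low libraries included lungs with and without a hernia and with and without treprostinil, and the controls were lowest. Both title codes of the placebo group showed the high level: 10482 CPM in the code 56 library against 13337 and 11296 CPM in the code 61 libraries. Group and code cannot be told apart, and the cause of the difference was not tested. Exposed CDH replicate 1 had the highest sum among the low libraries. Without it, the exposed mean from COX2 on was 0.00263 of the placebo mean in place of 0.00407, and 1.99 times the control mean in place of 3.09 times.

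The model fitted across all genes tested 22 of the 37 members. The other 15, all tRNA places, had at most 5 counts in any library and did not pass the filter on low counts, and 3 of the 37 had no count in any library. Another 7 tRNA places were tested although they stayed under 1 CPM in every exposed and control library. They passed through their placebo counts, as did ND4L. Such a filter favours members that differ from placebo CDH, so counts of calls over the members that passed are descriptions. Outside placebo CDH, ND4L had 25, 7 and 3 counts in exposed CDH replicates 1 to 3 and 4 and 1 in controls. In exposed against placebo CDH lungs, 18 members were lower and 0 were higher (edgeR's quasi-likelihood test, with p adjusted by Benjamini-Hochberg over all 14507 IDs tested and called under 0.05). In that comparison 1.42% of all IDs were called, 1.08% lower and 0.345% higher. At an unadjusted p under 0.05, 22 members were lower and 0 higher. The share of all IDs at that p is not given, so this count is a description. DESeq2 called 20 members lower and 0 higher, against 4.34% of all IDs called by DESeq2.

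Placebo CDH against control lungs gave the reverse picture: 19 members were higher and 0 lower, against 2.28% of all IDs called, 0.841% higher and 1.44% lower (edgeR, adjusted p under 0.05). At an unadjusted p under 0.05, 21 were higher and 0 lower, and DESeq2 called 20 higher and 0 lower, against 5.98% of all IDs called by DESeq2. In exposed CDH against control lungs 1 member, ND6, was called higher and 0 lower, while 7.77% of all IDs were called, 2.43% higher and 5.34% lower (edgeR, adjusted p under 0.05). At an unadjusted p under 0.05 there were 9 higher and 0 lower, and DESeq2 called 8 higher, against 12.1% of all IDs called by DESeq2. The share of all IDs at that unadjusted p is not given, so the counts of 21 and 9 are descriptions. Without either control, 12 members were called in placebo CDH against control, in place of 19, while the share of all IDs called fell to 0.385% without control replicate 1 and 0.338% without control replicate 2. Any pair of the 3 comparisons shares a group of libraries, so these results are not independent of each other.

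The median log2 fold change of the 22 tested members was -7.33 for exposed against placebo CDH, or -6.71 with groups that had 0 counts set to a floor of 3 counts per library. The median over all tested IDs was 0.00. For placebo CDH against control the median was 9.33, or 5.83 at the floor, and over all IDs 0.01. For exposed CDH against control it was 1.72, or 0.53 at the floor, and over all IDs 0.01. Without the floor, each median lay between tRNA places. These were proline and asparagine, then cysteine and glutamate, then alanine and the leucine beside ND5. All of them were tested because of their placebo counts, so the medians are a description and no support.

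**Figure D2:**
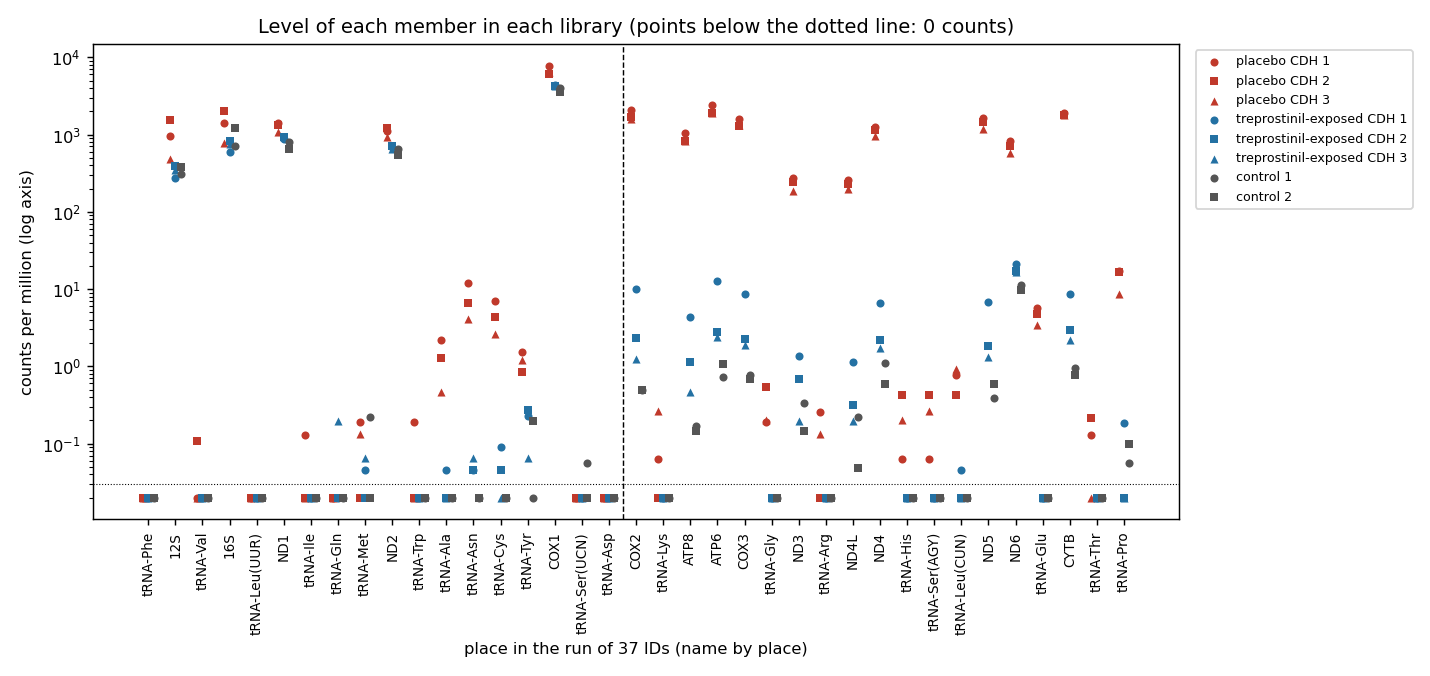
Level of every member in every library, in CPM on a log axis, in order of place; colours mark the groups, marker shapes the replicates, and points below the dotted line have 0 counts. Right of the dashed line between COX1 and COX2 the placebo CDH points stay at 185 to 2409 CPM for protein genes, and all exposed and control points lie at or below 20.9 CPM.

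Complex IV, cytochrome c oxidase, passes electrons to oxygen, and its 3 mitochondrial subunits lay on both sides of the boundary. COX1 (ENSOCUG00000029096), the catalytic subunit that binds the haem centres, stood at 7806, 6110.4 and 6540.3 CPM in placebo CDH replicates 1 to 3. It stood at 4417, 4192 and 4214 CPM in exposed CDH replicates 1 to 3, and at 3958 and 3513 CPM in the controls. Placebo libraries were highest without overlap, by less than a doubling. For exposed against placebo CDH the log2 fold change was -0.69 ± 0.12 (standard error; edgeR, adjusted p = 0.0331). For placebo CDH against control it was 0.85 ± 0.13 (standard error; edgeR, adjusted p = 0.0218).

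COX2 (ENSOCUG00000029099), which takes up electrons from cytochrome c, stood at 2104, 1697 and 1584 CPM in placebo CDH replicates 1 to 3. In exposed CDH it stood at 9.94, 2.31 and 1.24 CPM. In control replicates 1 and 2, 9 and 10 counts gave 0.499 and 0.488 CPM, with exact 95% intervals of 0.228 to 0.947 and 0.234 to 0.897 CPM. Placebo libraries were separated from exposed and control libraries by more than 100-fold at the nearest libraries. COX2 fell by 8.61 ± 0.60 (standard error) on the log2 scale in exposed against placebo CDH (adjusted p = 0.000272 by edgeR). Without exposed CDH replicate 1 it fell by 9.91.

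COX3 (ENSOCUG00000029103), the third core subunit, behaved as COX2 did in these libraries, with 1598, 1281 and 1313 CPM in placebo CDH, 8.75, 2.27 and 1.90 CPM in exposed CDH, and 0.776 and 0.683 CPM in control libraries. Subunits of one enzyme thus stood at very different ratios. Per 100 counts of COX1, placebo CDH replicates 1 to 3 held 26.9, 27.8 and 24.2 counts of COX2. The exposed libraries held 0.225, 0.0552 and 0.0295, and the controls 0.0126 and 0.0139. This ratio is taken within a library, so its size does not depend on the scaling of library totals.

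Complex I, NADH dehydrogenase, is where electrons from NADH enter the chain, and 7 of its subunits are mitochondrial. ND1 (ENSOCUG00000029086), which forms part of the ubiquinone site, stood at 1399, 1336 and 1084 CPM in placebo CDH, 879.9, 921 and 934 CPM in exposed CDH, and 790.2 and 655 CPM in control libraries. ND2 (ENSOCUG00000029090), a proton-pumping subunit, stood at 1121, 1211 and 926 CPM in placebo CDH, 679.8, 717 and 652 CPM in exposed CDH, and 640.3 and 542 CPM in controls. The placebo libraries of both genes lay above all others, again by less than a doubling of the means. ND2 was called in exposed against placebo CDH (log2 fold change -0.68 ± 0.11, standard error; adjusted p = 0.0315 by edgeR), and ND1 was not (-0.50 ± 0.11; adjusted p = 0.0806 by edgeR). Against control, both were higher in placebo CDH, with log2 fold changes of 0.81 and 0.87 and standard errors of 0.13 (adjusted p = 0.024 and 0.0178 by edgeR).

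The calls of COX1 and ND2 in the treprostinil comparison were unstable to leaving out 1 library, within or outside the groups compared. The share of all IDs called in that comparison was lower too, at 0.296% to 1.29% without 1 placebo or exposed library, in place of 1.42%. Leaving out any 1 of the 8 libraries ended the call of COX1, and leaving out any 1 other than placebo CDH replicate 3 ended that of ND2, with log2 fold changes that stayed between -0.79 and -0.57. DESeq2 called ND1, ND2 and COX1 in that comparison, and edgeR called ND1 there without placebo CDH replicate 3. Against control, the placebo CDH calls of COX1, ND2 and ND1 were lost without either control, that of ND2 also without placebo CDH replicate 2, and that of ND1 also without placebo CDH replicate 1 or 2. Fitting only the groups compared ended the calls of COX1 and ND2 for exposed against placebo CDH and those of COX1 and ND1 for placebo CDH against control.

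ND3, ND4L, ND4 and ND5, further membrane subunits of complex I, lay beyond the boundary. ND5 (ENSOCUG00000029112), the largest of the pumping subunits, stood at 1638, 1462 and 1166 CPM in placebo CDH, 6.75, 1.86 and 1.31 CPM in exposed CDH, and 0.388 and 0.585 CPM in controls. ND4 (ENSOCUG00000029108), another pumping subunit, stood at 1247, 1154 and 948 CPM in placebo CDH, 6.61, 2.22 and 1.70 CPM in exposed CDH, and 1.11 and 0.585 CPM in controls. Both were nearly empty outside the placebo group. Per 100 counts of ND1, ND5 had 108 to 117 counts in placebo CDH libraries, 0.140 to 0.767 in exposed and 0.0491 to 0.0893 in control libraries. For the same 2 subunits of one enzyme, the ratio thus moved by more than 100-fold.

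ND3 (ENSOCUG00000029105) and ND4L (ENSOCUG00000029107) are short genes. ND3 stood at 272, 244 and 185 CPM in placebo CDH, 1.37, 0.680 and 0.196 CPM in exposed CDH, and 0.333 and 0.146 CPM in controls. ND4L stood at 259, 227 and 197 CPM in placebo CDH, 1.14, 0.317 and 0.196 CPM in exposed CDH, and 0.222 and 0.0488 CPM in controls. The lowest of these values rest on 1 to 6 counts, so the order among exposed and control libraries is not resolved for ND3 and ND4L.

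CYTB (ENSOCUG00000029115), cytochrome b, is the only mitochondrial subunit of complex III, which hands electrons from ubiquinol to cytochrome c. It stood at 1911, 1764 and 1776 CPM in placebo CDH, 8.75, 2.95 and 2.16 CPM in exposed CDH, and 0.943 and 0.780 CPM in controls. The placebo mean was 393 times the exposed mean, or 712 times without exposed CDH replicate 1, and 2109 times the control mean. CYTB fell by 8.60 ± 0.43 (standard error) on the log2 scale in exposed against placebo CDH (adjusted p = 4.30e-05 by edgeR). Without exposed CDH replicate 1 it fell by 9.44.

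ATP6 and ATP8 are the mitochondrial subunits of complex V, the ATP synthase. ATP6 (ENSOCUG00000029102), part of its proton channel, stood at 2409, 1897 and 1913 CPM in placebo CDH, 12.5, 2.81 and 2.42 CPM in exposed CDH, and 0.721 and 1.07 CPM in controls. ATP8 (ENSOCUG00000029101), a small subunit of the membrane part, stood at 1055, 827 and 815 CPM in placebo CDH, 4.28, 1.13 and 0.458 CPM in exposed CDH, and 0.166 and 0.146 CPM in controls, where each library had 3 counts. Both genes of complex V were nearly empty in exposed and control lungs. The reading frames of ATP8 and ATP6 overlap, as do those of ND4L and ND4, and the counting rule for reads that touch both is not given. In placebo CDH there were 42.6 to 43.8 counts of ATP8 per 100 of ATP6 and 19.6 to 20.8 of ND4L per 100 of ND4.

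The 9 protein genes after COX1 other than ND6 moved together. ND4L passed the filter through its placebo counts, so its p-values in comparisons with placebo CDH, the lowest of the 9, are no support. The 9 log2 fold changes ran from -8.77 to -8.19 for exposed against placebo CDH (standard errors 0.34 to 0.60, edgeR adjusted p 9.47e-06 to 0.000272). Without exposed CDH replicate 1 they ran from -10.03 to -8.90. For placebo CDH against control they ran from 9.91 to 12.42, with standard errors of 0.48 to 0.90 (edgeR adjusted p from 2.70e-05 to 0.000463). Leaving out a control moved ND3 and ND4L most in that comparison, to 10.53 and 11.95 without control replicate 1 and to 9.43 and 9.97 without control replicate 2. For exposed CDH against control they ran from 1.71 to 3.64, with standard errors of 0.64 to 1.15, and 0 of the 9 were called (edgeR adjusted p from 0.0549 to 0.227). Of the 9, 7 had an unadjusted p under 0.05 in that comparison. This is a description, since the share of all IDs at that p is not given. The exposed means of the 9 genes were 3.12 to 12.5 times the control means, and 1.83 to 5.09 times without exposed CDH replicate 1. Without control replicate 1 these ratios reached 5.11 for ND3 and 11.3 for ND4L, in place of 3.12 and 4.07, and without control replicate 2 that of ND4L was 2.48. Without exposed CDH replicate 1, edgeR called 4 members as higher in exposed CDH than in control, ND6 not among them, while 5.95% of all IDs were called.

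**Figure D3:**
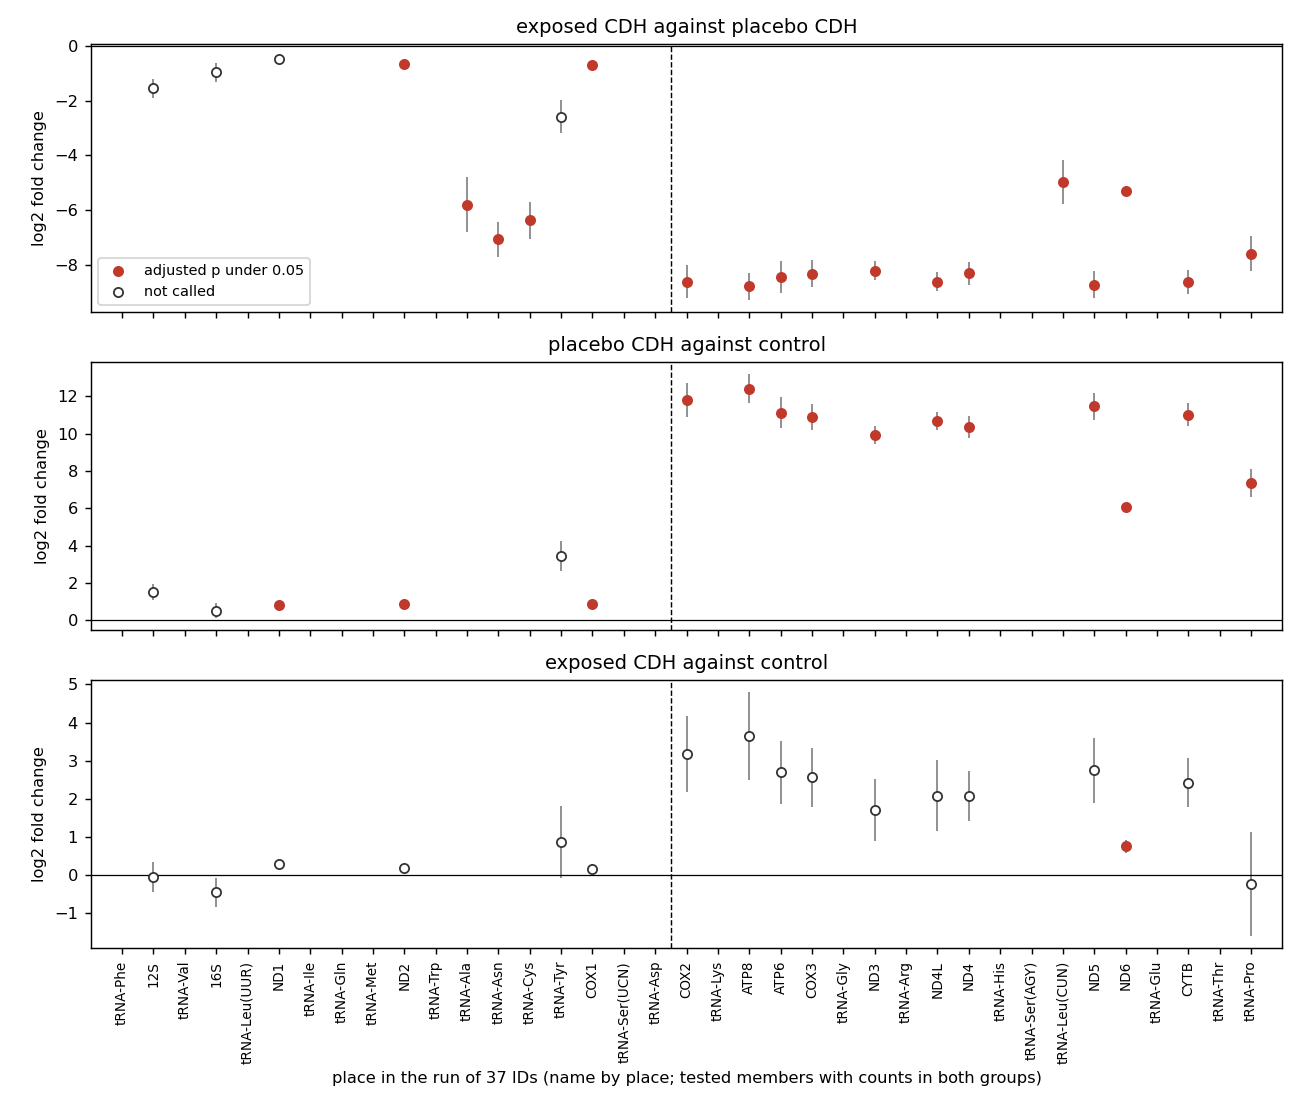
Log2 fold change of tested members that have counts in both groups, in order of place, for the 3 comparisons. Bars are standard errors and filled points have an edgeR adjusted p under 0.05. For tRNA places and ND4L this is no support, since they were tested because of their placebo counts. In the upper panel the protein genes left of the dashed line lie between -0.69 and -0.50 and those right of it, apart from ND6 at -5.29, between -8.77 and -8.19.

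ND6 (ENSOCUG00000029113), a complex I subunit and the only protein gene read from the light strand, kept more of its level than its neighbours. It stood at 820.4, 720.01 and 570.5 CPM in placebo CDH, 20.9, 16.95 and 16.4 CPM in exposed CDH, and 11.1 and 9.85 CPM in controls. Exposed libraries lay between placebo and control without overlap. The placebo mean was 38.9 times the exposed mean, where the other 9 genes had ratios of 312 to 459. Without exposed CDH replicate 1 the ratio was 42.2 for ND6 and 533 to 1130 for the others. The difference between ND6 and the others was not tested.

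ND6 fell by 5.29 ± 0.16 (standard error) on the log2 scale in exposed against placebo CDH (adjusted p = 1.62e-06 by edgeR). It was the 1 member called in exposed CDH against control, with a log2 fold change of 0.76 ± 0.18 (standard error; adjusted p = 0.0388 by edgeR). That call was lost without placebo CDH replicate 2, without any 1 of the exposed libraries and without either control, with log2 fold changes from 0.66 to 0.83 over all alternatives. Per 100 counts of its neighbour ND5, ND6 had 48.9 to 50.1 counts in placebo CDH libraries, 310 to 1255 in exposed and 1683 to 2871 in control libraries. Whether the counting used strand is not given, so reads of ND6 and reads antisense to it cannot be told apart.

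The small counts that remained beyond the boundary kept a similar profile in exposed CDH replicate 1. There the 9 genes other than ND6 stood at 0.474% to 0.626% of their placebo mean. In exposed CDH replicates 2 and 3 they stood at 0.126% to 0.291% and at 0.0510% to 0.152%, and in control replicates 1 and 2 at 0.0185% to 0.142% and 0.0163% to 0.0626%. ND6 stood at 2.97%, 2.41% and 2.33% in the exposed and 1.58% and 1.40% in the control libraries. Replicate 1 of the exposed group was thus highest for each of the 10 genes. The remaining counts of the 9 genes numbered 1319, 365 and 177 in exposed CDH replicates 1 to 3 and 93 in each control.

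**Figure D4:**
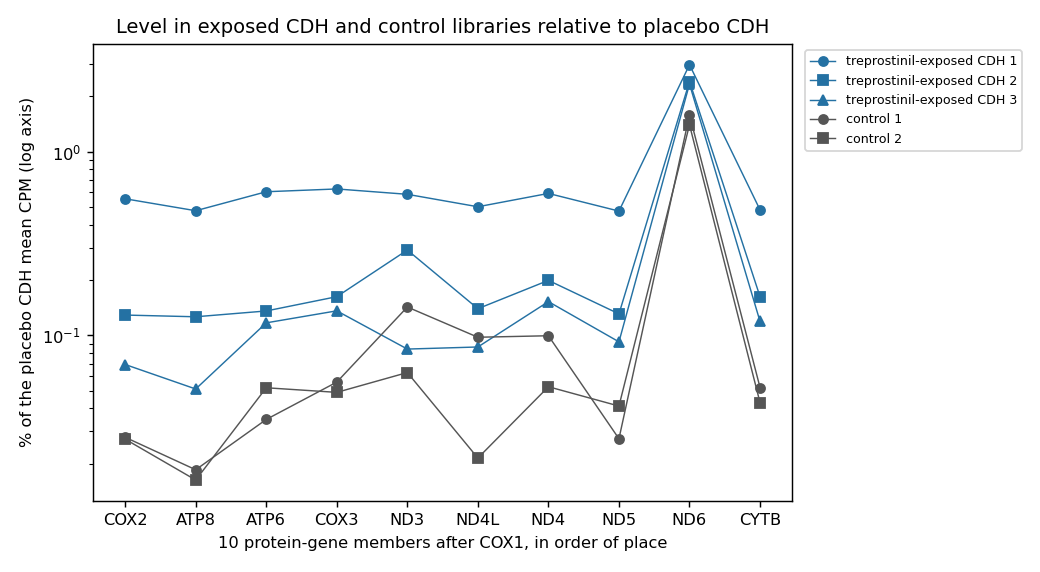
Level of the 10 protein genes after COX1 in each exposed CDH and control library, as a percentage of the placebo CDH mean CPM, on a log axis and in order of place. All lines lie under 1% except at ND6, which stands at 1.40% to 2.97%, and exposed CDH replicate 1 is the uppermost line throughout.

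The 12S and 16S ribosomal RNAs form the core of the mitochondrial ribosome and lie at the start of the run. 12S (ENSOCUG00000029082) stood at 966, 1527 and 486 CPM in placebo CDH, 277, 394 and 348 CPM in exposed CDH, and 307 and 382 CPM in controls. 16S (ENSOCUG00000029084) stood at 1399.6, 2041 and 770.0 CPM in placebo CDH, 593, 819 and 751 CPM in exposed CDH, and 715 and 1210.3 CPM in controls. These were the most variable of the abundant members within the placebo group: the highest library was 3.14 times the lowest for 12S and 2.65 times for 16S, against 1.08 to 1.47 times for the 13 protein genes.

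Placebo and exposed libraries overlapped for 16S but not for 12S. With all libraries and the filter on low counts, edgeR called neither in any comparison. It called 12S in exposed against placebo CDH without that filter, and in both comparisons with placebo CDH without placebo CDH replicate 3, and DESeq2 called 12S in both as well. For exposed against placebo CDH the log2 fold changes were -1.56 ± 0.36 for 12S and -0.97 ± 0.35 for 16S (standard errors; adjusted p = 0.0834 and 0.227 by edgeR). The extraction of RNA is described, but a step that selects messages or removes ribosomal RNA is not, and its part in the ribosomal levels was not tested.

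The tRNA places held few counts, and by place these lay mostly on the light strand. Of 8 light-strand tRNA places, 6 averaged 1 CPM or more in placebo CDH, and of 14 heavy-strand tRNA places 0 did. In placebo libraries the light-strand places held 1347 counts and the heavy-strand places 84, so 94.1% of the tRNA counts lay at light-strand places. Light and heavy strands held 26 and 3 counts in the exposed libraries, and 8 and 4 in the controls. Mature tRNAs are short and folded, and how far such RNA enters these libraries is not given.

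The highest tRNA place was that of proline, at the end of the run (ENSOCUG00000029117), with 17.1, 16.9 and 8.55 CPM in placebo CDH, 0.182, 0 and 0 CPM in exposed CDH, and 0.0555 and 0.0975 CPM in controls. It was one of the 7 places tested because of their placebo counts, as were those of glutamate, alanine, asparagine, cysteine, tyrosine and the leucine beside ND5, so their calls support nothing and their counts are given as a description. The place of glutamate, beside ND6 (ENSOCUG00000029114), had 89, 45 and 52 counts in placebo CDH replicates 1 to 3 and 0 in each of the other 5 libraries. Set against a floor of 3 counts per library, its placebo mean of 4.65 CPM was at least 29.7-fold higher than in exposed CDH and at least 29.7-fold higher than in control lungs.

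On the near side of the boundary, the light-strand tRNA places between ND2 and COX1 were also low outside placebo CDH. These places, of alanine, asparagine, cysteine and tyrosine, were tested because of their placebo counts. ND2 and COX1 themselves kept most of their level. The other light-strand places before COX2 had 0 counts in placebo CDH. That of glutamine had 3 counts in exposed CDH replicate 3, and that of serine beside COX1 had 1 in control replicate 1. Asparagine (ENSOCUG00000029093) had 190, 62 and 62 counts in placebo CDH replicates 1 to 3, 1 in each exposed library and 0 in each control. Cysteine (ENSOCUG00000029094) had 110, 41 and 39 counts in placebo CDH, 2, 1 and 0 in exposed CDH and 0 in each control. Against the same floor, their placebo means were at least 48.7-fold and 29.8-fold higher than in controls.

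Alanine (ENSOCUG00000029092) averaged 1.30 CPM in placebo CDH and had 1 count in all exposed libraries together and 0 in the controls. Tyrosine (ENSOCUG00000029095) had 24, 8 and 18 counts in placebo CDH, 5, 6 and 1 in exposed CDH and 0 and 4 in controls. The heavy-strand place of leucine beside ND5 (ENSOCUG00000029111) had 12, 4 and 14 counts in placebo CDH, 1, 0 and 0 in exposed CDH and 0 in each control.

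Outside the run the same pattern was looked for by a fixed rule: a mean of 5 CPM or more in the higher group and a ratio of at least 10 between the nearest libraries of placebo CDH and all others. Among members, 12 of the 17 with a placebo mean of 5 CPM or more had it, namely the 10 protein genes after COX1 and the tRNA places of asparagine and proline. Outside the run, 0 of 11138 IDs did. Members entered by their placebo level and with earlier results known, so these counts are a description without a test. The reverse pattern, with placebo CDH low, was found in 2 of 11144 IDs.

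These 2 IDs were low in placebo CDH and well counted in the other lungs. ENSOCUG00000026762 stood at 2.06 ± 0.397 CPM (SD, n = 3) in placebo CDH, 589 ± 70.03 CPM (SD, n = 3) in exposed CDH and 562 ± 30.3 CPM (SD, n = 2) in control lungs. ENSOCUG00000025982 stood at 1.62 ± 0.346, 219.9 ± 14.1 and 196 ± 22.03 CPM in the same groups. No file pairs them with a gene name. Whether their counts come from mitochondrial RNA was not tested.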

How the data were processed

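The authors deposited raw counts in 1 table, as whole reads per Ensembl gene ID for 8 rabbit lung libraries, without normalization. Per the submitters' processing notes, Trimmomatic 0.36, STAR 2.5.2b, DESeq2 and the build OryCun2.0 were used. The counting program, the strand setting and the handling of multi-mapping reads are unstated in the sources used here. Reads from a mitochondrial haplotype unlike the reference, or shared with nuclear copies, could be lost or assigned elsewhere, and this may differ between libraries, which was not tested.

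Groups came from sample titles. Members and lists were chosen with earlier results of these data known. Members were named by place; those with a group mean of 1 CPM or more have their values printed, and IDs outside the run were named by the pattern rule in the text. The lists of nuclear oxidative phosphorylation genes, mitochondrial maintenance genes and cell type markers could not be matched and gave no result.

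CPM was the count divided by the column sum. Counts were fitted with edgeR 4.0.16 in R 4.3.3 (filterByExpr, TMM, glmQLFit and glmQLFTest, 8 libraries in 3 groups, 5 residual degrees of freedom), with Benjamini-Hochberg adjustment over 14507 IDs. Standard errors were derived from the F statistic. TMM factors ran from 0.973 to 1.03. The fit was tested on simulated data. No pair of libraries agreed within sampling noise (chi-square per degree of freedom 12.4 to 55.96 within groups). Alternatives were RLE scaling, 2 other filters, DESeq2 1.42.0, limma 3.58.1 voom, only the groups compared, totals without the members, a replicate block and leaving out each library. Figures used matplotlib 3.10.9.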

Additional observations from a re-analysis of the deposited data

How the results depend on the processing

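The 10 protein genes after COX1 were called in every alternative for exposed against placebo CDH and for placebo CDH against control, where the other 3 protein genes were not. The tRNA places and ND4L were tested because of their placebo counts, so their calls are not weighed. No called member changed direction in any alternative. RLE scaling, both other filters, DESeq2, limma voom, fitting only the groups compared and totals without the members gave 14 to 20 calls in the first comparison and 15 to 20 in the second. Each library left out in turn gave 14 to 18 calls for exposed against placebo CDH and 12 to 19 for placebo CDH against control, with 12 without either control, where the single control left is taken to vary as the other groups do. With the last number of the title code as a replicate block, 11 members were called in the first comparison in place of 18, 14 in the second and 0 in the third. Number 3 belongs to exposed CDH replicate 3 alone, so under the block that library adds nothing to the comparisons. In 8 pairs of libraries that share a number, departures from the group mean had correlations of -0.07 to 0.07. With groups of 2 or 3 libraries, these values cannot show whether the number pairs the libraries. Exposed CDH against control had 1 call, which became 2 without a filter, 8 with DESeq2 and 0 with limma voom (5 with an unadjusted p under 0.05, and 10 under the block), and 0 to 4 when 1 library was left out (5 to 9 with an unadjusted p under 0.05 in the fits with 0 calls). For exposed CDH against control, 5.74% of all IDs were called without a filter, 12.1% with DESeq2 and 8.73% with limma voom. The share of all IDs with an unadjusted p under 0.05 is not given, so counts at that p are descriptions. The cause of the shifts in calls was not tested, except that fewer samples entered. Scaling left each ratio of summed levels on its side of 1: exposed to placebo CDH was 0.281 to 0.318, placebo CDH to control 3.44 to 3.89 and exposed CDH to control 1.07 to 1.10 over all alternatives. RLE scaling kept the median change of all IDs within 0.01 on the log2 scale. Depth limits statements on tRNA places and on low values of ND3, ND4L and ATP8, which rest on a few counts.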
